A study of Mus musculus with 6 samples.

Results

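Fat and Dachsous proteins are very large protocadherins, cell surface proteins with long rows of cadherin repeats. The set described here holds the 4 Fat genes (*Fat1*, *Fat2*, *Fat3* and *Fat4*), the 2 Dachsous genes (*Dchs1* and *Dchs2*) and *Fjx1*, the homologue of the Drosophila gene four-jointed. Members were found by name in the deposited tables, and all 7 were present among 53715 genes. The set was selected on the gene reads and exon reads of these same libraries, with the difference between the genotypes already known. Every fold change of a member between genotypes is therefore a description, and no call of a member by a test is read as a result.

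In Drosophila, Fat on one cell binds Dachsous on its neighbour, and Four-jointed, a kinase of the Golgi, phosphorylates cadherin repeats of both and changes how well they bind. This contact orients cells within a tissue (planar cell polarity) and feeds into the Hippo pathway, which restrains growth through the coactivator Yorkie, called Yap in mammals. In mice Fat4 and Dchs1 are the main pair of this kind, and loss of either disturbs the skeleton and the kidney.

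The study asked how loss of *Fam102a* changes gene expression in osteoblasts. Calvarial cells of newborn C57BL/6J mice were kept for 7 days in osteogenic medium, in which such mesenchymal cells become osteoblasts, and their total RNA was sequenced. The 3 Wild-type libraries came from cells without the deletion. The 3 Fam102a KO libraries came from cells in which exons 2 and 3 of *Fam102a* had been removed throughout the body, by crossing floxed mice with *Actb*-Cre mice. The methods speak of independent experiments for the study as a whole, but for these libraries no source used here names separate animals or cultures, so p-values measure only the spread between these libraries.

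The 6 libraries held 12212169 to 21210150 reads in genes, exons and introns together, and introns took 52.5, 54.5 and 52.2% of them in Wild-type and 46.4, 53.2 and 45.8% in Fam102a KO. Libraries 1 and 3 of Fam102a KO thus held a lower share of intron reads than the other 4, and RPKM, which are scaled by gene reads, carry this difference. *Fam102a* had 170, 249 and 244 gene reads in the Wild-type libraries and 185, 260 and 257 in the Fam102a KO libraries, so its gene reads did not separate the genotypes. Its exon reads did, at 21.9, 23.8 and 21.2 CPM of exon reads in Wild-type and 18.1, 17.7 and 17.0 in Fam102a KO (log2 fold change -0.34, SE 0.14), and its junction reads numbered 115 and 62 in all. Its intron reads made up 19.8 ± 6.35% of its gene reads in Wild-type and 35.2 ± 3.25% in Fam102a KO (SD, n = 3 each). The osteoblast collagens *Col1a1* and *Col1a2* stood at 5737 to 9332 CPM (gene reads scaled to a common library size) in every library. *Bglap*, which codes for the late osteoblast product osteocalcin, had 53 reads in Fam102a KO library 2 and 0 to 6 in the other libraries. That library stood apart in this respect.

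Of the 7 genes, *Fat4* and *Dchs2* were lower in every Fam102a KO library than in any Wild-type library, as were 5.61% of all genes tested on gene reads. Both lie on chromosome 3 of mm10, on the plus strand. *Fat4* (ENSMUSG00000046743) spans 38886940 to 39011985 with 19 exons, and *Dchs2* (ENSMUSG00000102692) spans 83127948 to 83357209 with 20 exons. The 250 bases before their start sites are shown as a description. Both genes were picked by the contrast already known when the set was made, so no shared control is read from their sequences. The sequences and start sites are those of RefSeq on GRCm38.p6, the assembly of mm10. They run 5′ to 3′, and capitals mark a GC box (GGGCGG on either strand).
*Fat4* chr3:38886690-38886939 (plus strand): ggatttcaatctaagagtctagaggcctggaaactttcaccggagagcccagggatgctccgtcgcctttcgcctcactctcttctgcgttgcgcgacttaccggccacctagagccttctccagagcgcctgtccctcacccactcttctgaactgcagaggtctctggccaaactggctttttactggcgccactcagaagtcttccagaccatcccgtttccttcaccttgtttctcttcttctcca
*Dchs2* chr3:83127277-83127526 (plus strand): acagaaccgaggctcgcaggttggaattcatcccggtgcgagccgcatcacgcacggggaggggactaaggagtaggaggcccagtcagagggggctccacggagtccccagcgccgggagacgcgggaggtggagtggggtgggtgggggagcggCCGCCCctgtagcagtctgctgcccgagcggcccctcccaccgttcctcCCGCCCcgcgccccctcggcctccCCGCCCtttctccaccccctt
The *Fat4* window ends at the start of the gene in the deposited tables, whereas the *Dchs2* start site of RefSeq lies 421 bases upstream of the start in those tables. The *Fat4* window was 54.8% G and C and the *Dchs2* window 72%. The *Dchs2* window held 3 GC boxes, the first bases of which lie 94, 45 and 21 bases before the start site, and the *Fat4* window held 0. A GC box was found in 32.7% of 32851 promoter windows of the same length. Neither window held the letters TGTGGT or TGCGGT, read by Runx factors and present in 18.6% of windows, nor GGAATG, read by Tead factors and present in 12.6% (both strands searched). Windows of *Fat1*, *Fat2* and *Fat3* were searched as well. Those of *Fat1* and *Fat2* each held 1 GGAATG and no other of these letters, and that of *Fat3* held none of them. The RefSeq start sites of *Fat1* and *Fat2* lie 14761 and 24307 bases from the starts in the deposited tables.

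Levels were compared between genes in RPKM, exon reads scaled by exon length and by the gene reads of the library, so that the long genes are not favoured. *Fat1* stood highest, at 27.9 to 44.6 RPKM over the 6 libraries, and only 5.05% of 13858 genes tested on exon reads had a higher median. *Fat4* followed at 4.93 to 17.1 RPKM, with 15.1% of genes above it. *Fjx1* at 1.10 to 1.87 RPKM and *Dchs1* at 0.704 to 2.10 RPKM lay below most expressed genes. *Dchs2* at 0.0787 to 0.251, *Fat3* at 0.103 to 0.221 and *Fat2* at 0.0451 to 0.0725 RPKM were near the lower end, with 94.5 to 99.8% of genes above them. Thus the receptors *Fat1* and *Fat4* were abundant in these cells, and every Dachsous gene was scarcer than either.

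**Figure D1:**
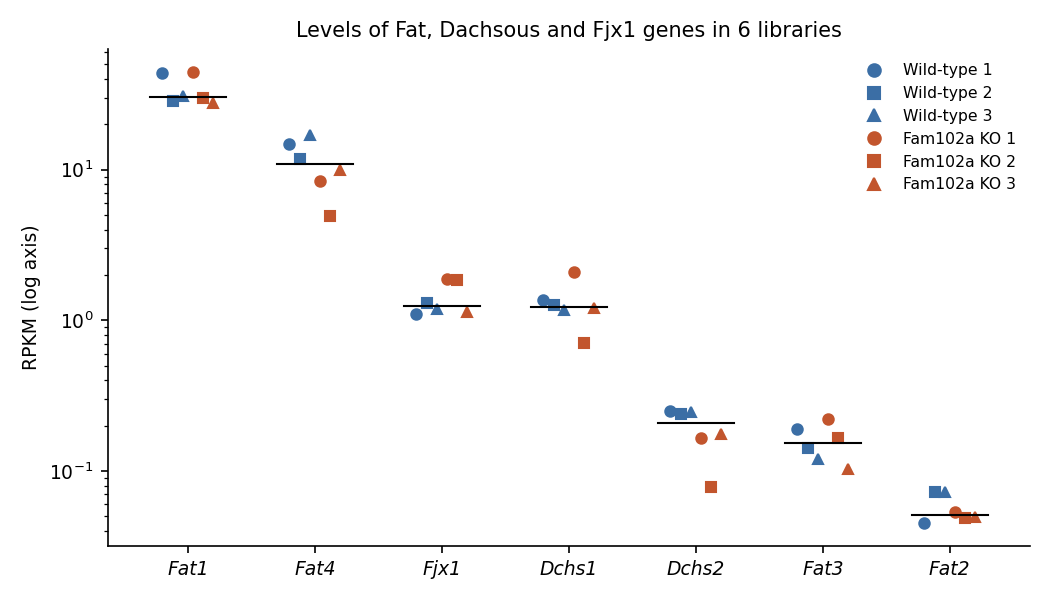
RPKM of each gene (log axis) in the 3 Wild-type libraries (blue) and the 3 Fam102a KO libraries (orange), with the replicate number as the shape and the median of 6 libraries as a line. *Fat1* lies above *Fat4* in every library, and *Fjx1* and *Dchs1* overlap between 1.10 and 1.87 RPKM.

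Within a library, *Fat1* was above *Fat4* in 6 of 6 libraries, by 3.24-fold on average. The next steps were *Fat4* over *Fjx1* (7.54-fold), *Dchs1* over *Dchs2* (6.86-fold) and *Fat3* over *Fat2* (2.72-fold), each in 6 of 6 libraries. The pairs follow from ranking these same libraries, so the steps are a description, with no test. *Fjx1* and *Dchs1* did not differ beyond their spread (mean difference 0.15 on the log2 scale, SD 0.62, higher in 3 of 6 libraries), and neither did *Dchs2* and *Fat3* (0.25, SD 0.82, higher in 4 of 6). In the Wild-type libraries alone, *Dchs2* at 0.239 to 0.251 RPKM lay above *Fat3* at 0.121 to 0.190, while in Fam102a KO their ranges overlapped. The place of *Dchs1* depends on how reads that map to more than 1 place are counted, since only 57.9% of its exon reads were uniquely placed. With uniquely placed exon reads, *Fjx1* stood 0.92 above *Dchs1* on the log2 scale.

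The receptor *Fat4*, the closest mammalian relative of Drosophila Fat, was sequenced deeply enough to be read in each library. It had 3561, 4442 and 6823 gene reads in the Wild-type libraries and 2116, 2128 and 3397 in the Fam102a KO libraries. Scaled by TMM, which sets the libraries to a common size, these were 302, 252 and 353 CPM in Wild-type and 152, 105 and 182 CPM in Fam102a KO. The highest Fam102a KO library was thus below the lowest Wild-type library. The means were 302 ± 50.7 and 146 ± 38.8 CPM (SD, n = 3 each), a log2 fold change of -1.05 (SE 0.21) or 0.484 times the Wild-type level. In a bulk sample, fewer cells that express a gene and less RNA per cell cannot be told apart.

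Exon reads of *Fat4* gave the same size, -1.05 (SE 0.20) on the log2 scale. The RPKM were 14.8, 11.8 and 17.1 in Wild-type and 8.43, 4.93 and 9.98 in Fam102a KO. Between libraries of equal replicate number, the ratio of gene reads in CPM was 0.504, 0.417 and 0.516, so that the spread between pairs was small beside the difference. Blocked by replicate number, the log2 fold change was -1.07 (SE 0.10) for gene reads and -1.07 (SE 0.097) for exon reads. Among all 16391 genes tested on gene reads, 134 (0.818%) had a log2 fold change at or below that of *Fat4*, as did 118 of 13858 (0.851%) on exon reads.

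**Figure D2:**
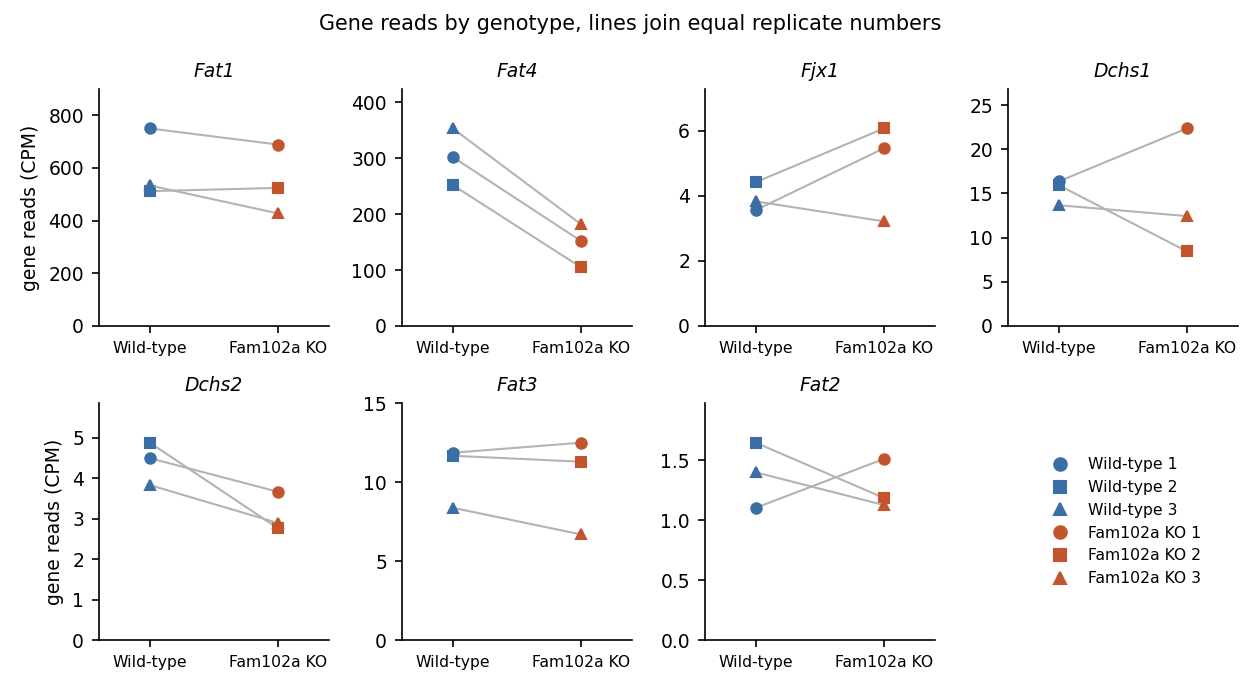
Gene reads in CPM of each gene in Wild-type (blue, left) and Fam102a KO (orange, right), with a line between libraries of equal replicate number; every axis starts at 0. All 3 lines slope down for *Fat4*, to 0.417 to 0.516 times, and for *Dchs2*, whereas for each of the other 5 genes at least 1 line slopes up and 1 down.

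The lower *Fat4* level was seen in each kind of read. Relative to the Wild-type mean in CPM, the Fam102a KO mean was 0.481 for exon reads, 0.503 for intron reads and 0.460 for reads across exon junctions. Intron reads made up 13.5 ± 0.491% of the gene reads in Wild-type and 14.2 ± 2.24% in Fam102a KO (SD, n = 3 each). The intron share therefore moved little while the level differed. Uniquely placed exon reads, 85.2% of the exon reads of *Fat4*, gave 0.479. For comparison, the same ratios of *Fat1*, the most abundant member, were 0.905 for exon, 1.07 for intron and 0.820 for junction reads.

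**Figure D3:**
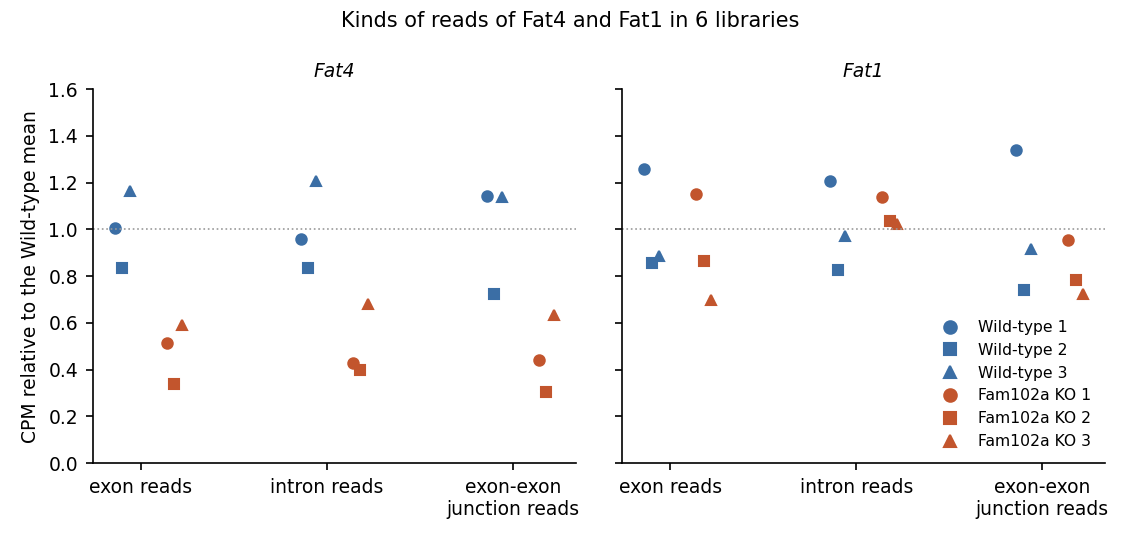
Exon, intron and exon junction reads of *Fat4* (left) and *Fat1* (right), in CPM divided by the Wild-type mean (dotted line at 1), for each Wild-type (blue) and Fam102a KO (orange) library. For *Fat4* the genotypes separate in all 3 kinds of read, with Fam102a KO means of 0.481, 0.503 and 0.460, and for *Fat1* they overlap or lie close to the line.

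An antisense gene, C230034O21Rik, lies opposite *Fat4* and shares 1209 exon bases with it. The sources used here do not state that strand was used in counting, so reads over these bases cannot be assigned to one gene or the other. C230034O21Rik had 19.3, 18.0 and 27.1 CPM in Wild-type and 13.4, 8.35 and 15.9 CPM in Fam102a KO. These values are small beside those of *Fat4*, and the highest Fam102a KO value again lay below the lowest Wild-type value. A further antisense gene over *Fat4*, Gm43539, had 0 reads in all 6 libraries.

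*Fat1*, which binds Ena/VASP regulators of actin through its cytoplasmic tail, lies on chromosome 8 from 44935447 to 45052257. It had 750, 512 and 533 CPM of gene reads in Wild-type and 689, 524 and 427 CPM in Fam102a KO. The genotypes overlapped, and the log2 fold change was -0.13 (SE 0.21) for gene reads and -0.14 (SE 0.23) for exon reads. Its sign rested on single libraries, since it was 0.06 without Wild-type library 1, 0.02 without Fam102a KO library 3 and -0.33 without Fam102a KO library 1. The antisense gene Gm2366, which shares 487 exon bases with *Fat1*, had 13 to 40 reads, of which 0 exon reads were uniquely placed.

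*Fat3*, best known from neurons of the retina, lies on chromosome 9 from 15910189 to 16501285, the longest span of the set. Its gene reads were mostly intronic, 69.6% over all libraries. It had 11.9, 11.7 and 8.39 CPM in Wild-type and 12.5, 11.3 and 6.70 CPM in Fam102a KO, which overlapped (log2 fold change -0.07, SE 0.25). The sign rested on single libraries, at 0.16 without Fam102a KO library 3, 0.01 without Wild-type library 1 and -0.24 without Fam102a KO library 1. *Fat2*, best known from granule cells of the cerebellum, lies on chromosome 11 from 55250609 to 55336564 and had only 13 to 29 gene reads a library. At that depth its genotype values, 1.10 to 1.64 CPM in Wild-type and 1.13 to 1.51 CPM in Fam102a KO, could not be told apart (-0.14, SE 0.34). Leaving out 1 library gave -0.27 to 0.0040.

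Of the ligands, *Dchs1*, the partner of Fat4, lies on chromosome 7 from 105752990 to 105787654. It had 193, 281 and 264 gene reads in Wild-type and 311, 171 and 232 in Fam102a KO, or 16.4, 15.9 and 13.7 against 22.4, 8.45 and 12.4 CPM. The Fam102a KO libraries held both the highest and the lowest value, so the log2 fold change of -0.10 (SE 0.33) had no settled sign. It was 0.18 without Fam102a KO library 2 and -0.55 without Fam102a KO library 1. The processed pseudogene Gm15645, which shares 648 exon bases with *Dchs1*, had 2 to 18 gene reads.

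*Dchs2*, the paralogue of *Dchs1*, had few reads but did not overlap between genotypes. Its gene reads were 53, 86 and 74 in Wild-type and 51, 56 and 54 in Fam102a KO, or 4.50, 4.88 and 3.83 against 3.67, 2.77 and 2.90 CPM. The log2 fold change was -0.50 (SE 0.24). Exon reads differed more, with 33, 49 and 53 reads in Wild-type and 23, 18 and 32 in Fam102a KO, or 5.83, 5.67 and 5.44 against 3.38, 1.83 and 3.46 CPM of exon reads. Their log2 fold change was -0.97 (SE 0.33), and -0.72 without Fam102a KO library 2, the lowest of the 3. Reads across exon junctions numbered 25 in Wild-type and 7 in Fam102a KO in all. Intron reads made up 36.4 ± 7.42% of gene reads in Wild-type and 54.5 ± 13.6% in Fam102a KO (SD, n = 3 each), and these shares overlapped. The lincRNA gene Gm10710 on the opposite strand, which shares 1299 exon bases, had 0 to 2 gene reads.

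*Fjx1*, a gene of 1 exon on chromosome 2 from 102449366 to 102452499, was the only member with a positive log2 fold change in all 6 libraries together, 0.32 (SE 0.28). It had 3.56, 4.42 and 3.83 CPM in Wild-type and 5.46, 6.07 and 3.22 CPM in Fam102a KO. Libraries 1 and 2 of Fam102a KO were above every Wild-type library and library 3 was below them all. The log2 fold change was 0.13 without Fam102a KO library 2 and 0.55 without Fam102a KO library 3.

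**Figure D4:**
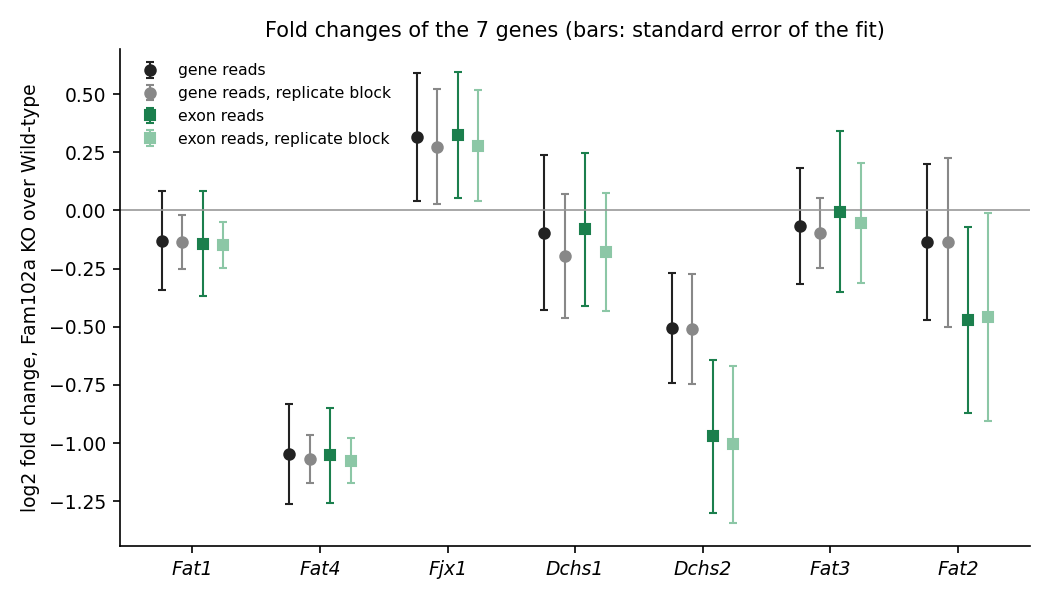
Log2 fold change of Fam102a KO over Wild-type for each gene, from gene reads (black and grey) and exon reads (dark and light green), each fitted alone or blocked by replicate number; bars are the standard error of the fit. *Fat4* lies at -1.05 to -1.07 in all 4 fits, and *Dchs2* lies lower on exon reads (-0.97) than on gene reads (-0.50).

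Over the 7 genes, the median log2 fold change was -0.13 for gene reads and -0.14 for exon reads, and 6 of 7 were negative in each. Among all genes tested the medians were -0.00089 and 0.0051, and 50.2% and 49% were negative. At an adjusted p under 0.05 edgeR without the block called 0 of the 7 genes on gene reads, where it called 0.0488% of all genes, and 0 on exon reads, where it called 0.0794%. At an unadjusted p under 0.05 it called 1 member (*Fat4*) on gene reads and 2 (*Fat4* and *Dchs2*) on exon reads, against 6.05% and 6.8% of all genes. With the replicate block it called *Fat4* at an adjusted p under 0.05 on both, against 0.0549% and 0.303% of all genes, and DESeq2 called *Fat4* on both, against 0.738% and 0.866%. The genotypes did not overlap, with Fam102a KO lower, for 2 members (*Fat4* and *Dchs2*) on gene reads and on exon reads, against 5.61% and 5.69% of all genes. Without Fam102a KO library 2, the log2 fold changes of gene reads were -0.86 for *Fat4*, -0.10 for *Fat1*, -0.15 for *Fat3*, -0.09 for *Fat2*, 0.18 for *Dchs1*, -0.43 for *Dchs2* and 0.13 for *Fjx1*. Since this contrast was known when the set was made, nothing is read from these counts.

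Ratios between members within a library restate these differences and are given for scale. In RPKM, *Fat4* was 10.9, 9.33 and 14.7 times *Dchs1* in Wild-type and 4.02, 7.01 and 8.31 times *Dchs1* in Fam102a KO. *Dchs1* was 5.41, 5.28 and 4.73 times *Dchs2* in Wild-type and 12.7, 8.94 and 6.80 times *Dchs2* in Fam102a KO. Neither of these ratios, a receptor over its ligand and one ligand over the other, overlapped between the genotypes. *Fat4* stood at 0.338, 0.411 and 0.554 times *Fat1* in Wild-type and at 0.189, 0.165 and 0.358 times *Fat1* in Fam102a KO, where the highest Fam102a KO value passed the lowest Wild-type value.

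Markers of the cell types that such cultures can hold were summed in each library beside *Fat4*. Of 11 chondrocyte markers, 10 passed the filter on low counts and 10 of these 10 had a negative log2 fold change. Among all genes tested, 50.2% were negative. At an unadjusted p under 0.05 by edgeR there were 4 of these 10, all lower, against 6.05% of all genes. Of these 4, *Comp* also passed at an adjusted p under 0.05 (edgeR adjusted p = 0.0260). The summed level of the 11 markers was 2979 to 3519 CPM in Wild-type and 1782 to 3053 CPM in Fam102a KO. The cartilage matrix gene *Comp* was at 293, 290 and 274 CPM in Wild-type and at 82.5, 126 and 93.0 CPM in Fam102a KO, whereas *Col2a1* overlapped, at 1753 to 2226 and 890 to 1978 CPM. *Sox6*, *Col9a1* and *Hapln1* had log2 fold changes of -1.10 (SE 0.32), -1.38 (SE 0.40) and -0.92 (SE 0.17), without overlap between the genotypes. Of the 8 macrophage and osteoclast markers 8 were negative and 0 were at an unadjusted p under 0.05 by edgeR, with overlapping sums of 826 to 2192 CPM in Wild-type and 427 to 1724 CPM in Fam102a KO. Endothelial markers summed to 42.9 to 74.8 and 10.5 to 94.1 CPM, which overlapped, with 0 of 6 at an unadjusted p under 0.05. Schwann and neural markers summed to 48.3 to 58.3 and 40.5 to 71.0 CPM, which also overlapped. Of these, 6 passed the filter and 2 had an unadjusted p under 0.05 by edgeR, 1 lower and 1 higher. After adjustment edgeR called 0 of the 6, or 1 when blocked by replicate number, and DESeq2 called 2. Muscle markers summed to 25.6 to 41.1 and 41.7 to 69.1 CPM, without overlap between the genotypes. Of these, 3 passed the filter, all with a positive log2 fold change, and 1 had an unadjusted p under 0.05. Epithelial markers summed to at most 3.56 CPM, with *Epcam*, *Krt5* and *Krt18* at 3 reads or fewer in every library, as were *Myod1*, *Myog* and *Ckm* of muscle. Of 9 osteoblast markers 7 passed the filter, 4 of them negative, and their sums overlapped at 14771 to 18260 CPM in Wild-type and 15950 to 16881 CPM in Fam102a KO. Within this list *Col1a1*, *Col1a2*, *Spp1* and *Ibsp* had log2 fold changes of -0.0045, 0.02, 0.27 and 1.35, the last resting on the 105 reads of Fam102a KO library 2, while the enzyme gene *Alpl* was at 47.9, 52.4 and 74.6 CPM in Wild-type and 16.4, 24.7 and 14.0 CPM in Fam102a KO, and the transcription factor gene *Sp7* was at 14.8 to 20.7 and 7.19 to 10.4 CPM. *Runx2*, also a transcription factor gene, was at 71.9 to 90.4 CPM in Wild-type and 56.5 to 65.9 CPM in Fam102a KO, without overlap (-0.40, SE 0.12). *Alpl*, *Sp7* and *Runx2* were the 3 of 7 at an unadjusted p under 0.05 by edgeR, all lower, against 6.05% of all genes. The part of the markers of any cell type in the *Fat4* values was not tested.

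Genes linked to these protocadherins were then examined in 5 lists on gene reads. In each list edgeR called 0 genes at an adjusted p under 0.05, with and without the replicate block. The share of all genes at an unadjusted p under 0.05 without the block was 6.05%, against which the counts without the block below can be read.

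The 17 genes whose products bind Fat or Dachsous proteins or act next to them had a median log2 fold change of 0.02, with 7 negative and 10 positive. At an unadjusted p under 0.05 there were 2 of 17, and DESeq2 called 0 at an adjusted p under 0.05. *Enah*, an Ena/VASP protein that promotes actin filament growth, had 83.7, 69.3 and 62.0 CPM in Wild-type and 54.8, 47.4 and 50.4 CPM in Fam102a KO. Its log2 fold change was -0.49 (SE 0.13, edgeR adjusted p = 0.483), and the genotypes did not overlap. *Homer3*, a scaffold protein, was at 22.7 to 25.8 and 29.7 to 33.9 CPM (0.39, SE 0.11, edgeR adjusted p = 0.566).

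The 25 genes of the Hippo kinase cascade and its adaptors had a median of 0.06, with 6 negative and 19 positive. At an unadjusted p under 0.05 there were 4 of 25, or 2 without Fam102a KO library 2 or without Wild-type library 3, and DESeq2 called 0. Over all genes, 839 of 16628 without Fam102a KO library 2 and 627 of 16682 without Wild-type library 3 were at an unadjusted p under 0.05. *Tead2*, a DNA-binding partner of Yap, had 27.7, 24.6 and 24.5 CPM in Wild-type and 38.0, 38.9 and 33.8 CPM in Fam102a KO. Every Fam102a KO library was above every Wild-type library (0.53, SE 0.11, edgeR adjusted p = 0.260). *Sav1*, the scaffold of the Hippo kinases, was at 52.1 to 55.8 and 40.4 to 43.6 CPM (-0.37, SE 0.094, edgeR adjusted p = 0.430), again without overlap. The kinase gene *Map4k4* (0.34, SE 0.12) and *Amot*, which holds Yap at cell junctions (-0.43, SE 0.18), had edgeR adjusted p of 0.693 and 0.797. *Yap1* itself had a log2 fold change of 0.04 and its paralogue *Wwtr1* of 0.21. These 2 genes, named after their values were seen, did not pass the unadjusted threshold.

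The 20 target genes of Yap and Tead had a median of 0.12, with 4 negative and 16 positive, and 2 of 20 at an unadjusted p under 0.05. *Axl*, a receptor tyrosine kinase, had 139, 141 and 152 CPM in Wild-type and 195, 194 and 191 CPM in Fam102a KO, without overlap. Its log2 fold change was 0.43 (SE 0.10) and its adjusted p was 0.359 by edgeR, 0.236 with the replicate block and 0.0462 by DESeq2, which called 1 gene of this list. *Nuak2*, a kinase gene, was at 9.01 to 14.4 and 11.6 to 21.9 CPM, which overlapped (0.72, SE 0.28, edgeR adjusted p = 0.762). The widely used targets *Ctgf* and *Cyr61*, also named after their values were seen, had log2 fold changes of 0.0025 and -0.35 and did not pass the unadjusted threshold.

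The 27 genes of the Frizzled branch of planar cell polarity, which acts beside the Fat branch, had a median of 0.06, with 8 negative and 19 positive. At an unadjusted p under 0.05 there were 3 of 27, and DESeq2 called 0. The ligand gene *Wnt5a* was at 18.2 to 23.2 CPM in Wild-type and 22.3 to 30.5 CPM in Fam102a KO (0.43, SE 0.16, edgeR adjusted p = 0.741). *Prickle1*, a cytoplasmic polarity gene, was at 17.2 to 25.5 and 25.4 to 31.5 CPM (0.42, SE 0.16, edgeR adjusted p = 0.761). Both overlapped between the genotypes. *Smurf2*, a ubiquitin ligase gene, was at 66.5 to 68.2 and 55.1 to 61.4 CPM without overlap (-0.22, SE 0.095, edgeR adjusted p = 0.816).

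Of 29 other cadherins, 27 passed the filter, with a median of 0.13, 9 negative and 18 positive. At an unadjusted p under 0.05 there were 3 of 27 without the block and 7 with it. Among all 16391 genes tested, 991 passed that threshold without the block and 1366 with it. *Cdh10*, a cadherin known from the brain, had 5.51, 3.63 and 6.06 CPM in Wild-type and 11.9, 12.4 and 8.79 CPM in Fam102a KO, without overlap. Its log2 fold change was 1.12 (SE 0.23) and its adjusted p was 0.260 by edgeR, 0.250 with the replicate block and 0.00964 by DESeq2, which called 1 gene of this list. *Cdh13*, a cadherin without a cytoplasmic tail, was at 14.4 to 16.3 and 21.3 to 22.9 CPM, without overlap (0.53, SE 0.12, edgeR adjusted p = 0.289). *Cdh11*, the main cadherin of osteoblasts, was at 718, 661 and 840 CPM in Wild-type and 496, 408 and 700 CPM in Fam102a KO, with 1 Fam102a KO library inside the Wild-type range (-0.47, SE 0.21, edgeR adjusted p = 0.816).

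**Figure D5:**
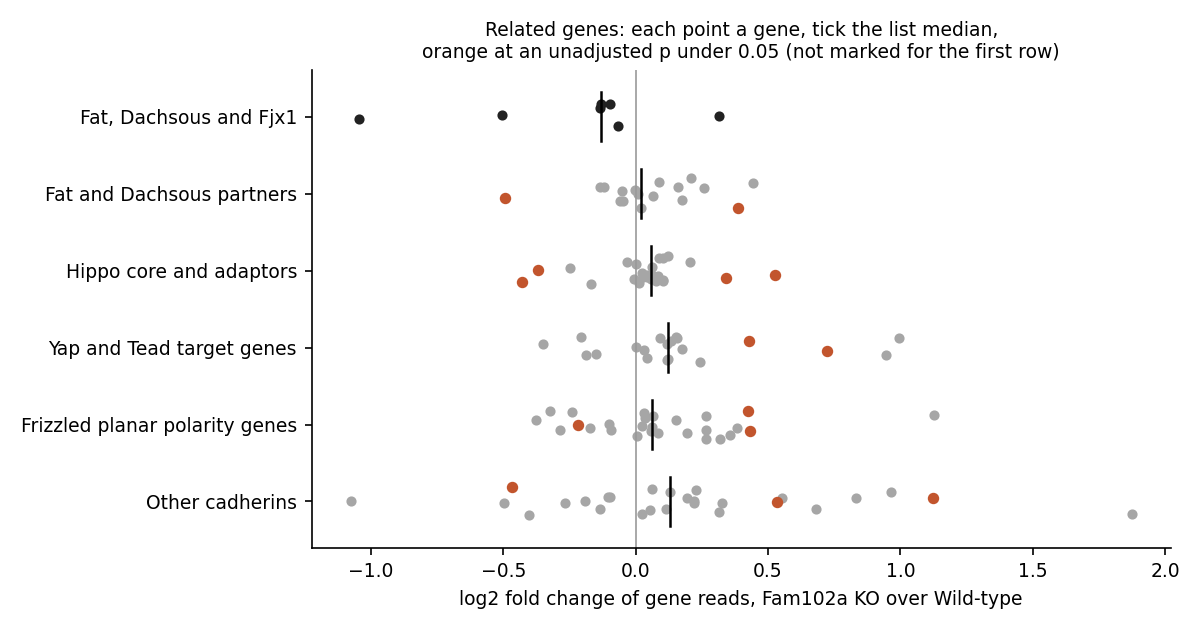
Log2 fold change of gene reads, Fam102a KO over Wild-type, for every tested gene of 6 lists, with the list median as a tick; orange points are at an unadjusted p under 0.05 by edgeR, not marked for the top list. *Fat4* at -1.05 lies left of every point of the related lists but *Cdh5* (-1.08, not past the unadjusted threshold), and the list medians lie between -0.13 and 0.13.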

How the data were processed

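The 6 cDNA libraries were prepared from total RNA by SMART-seq v4 and run on an Ion Proton. Alignment to mm10 and counting were done by the authors in CLC Genomics Workbench 12.0.3. Mapping settings, annotation release and strand use were not given in the sources used here. Each deposited table lists, per gene, counts of gene reads and of exon, intron, junction and unambiguously mapped reads, none of them normalized. They also hold RPKM that the authors computed from exon reads, exon length and the gene reads of the library. The tables hold 0 columns of other samples and no fold changes or p-values of the authors.

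Gene reads and exon reads were fitted with edgeR 4.0.16 in R 4.3.3 (filterByExpr with a minimum count of 10 and a minimum total of 15, TMM, robust quasi-likelihood test, Benjamini-Hochberg adjustment over 16391 and 13858 genes). CPM are TMM-scaled. The standard error was taken as the absolute log2 fold change divided by the root of the F statistic. One gene read was worth 0.0471 to 0.0819 CPM before TMM scaling. The code was tested on simulated counts. Levels of members next to each other in the order of median RPKM were compared as log2 differences within each library. Alternatives were the replicate block, RLE size factors, DESeq2 1.42.0, no filter, uniquely placed reads, replicates 2 and 3 only (the libraries that share the label of 1 sequencing run), limma 3.58.1 on log2(RPKM + 0.1) and log2(RPKM + 1), and leaving out each library. Figures were drawn with matplotlib 3.10.9.

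Whether equal replicate numbers pair libraries was examined over 14619 genes, by correlating each library's departures from its genotype mean. The r was 0.23, 0.19 and 0.20 for the 3 equal-numbered pairs and -0.23 to 0.05 for the other pairs. Departures from a genotype mean cancel out for each gene, so a positive r in a pair tends to lower the others. The gap between equal-numbered and other pairs is thus partly built in. This check is the only ground for the pairing, because no source explains the numbers.

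The members and lists were chosen with earlier results of these data known. Named genes are the 7 members, up to 4 genes of each related list at an unadjusted p under 0.05 on gene reads, and for each member the 3 genes of mean CPM 5 or more that correlate best with it, beside *Fam102a*. The cell type markers named, and *Yap1*, *Wwtr1*, *Ctgf*, *Cyr61* and *Cdh5*, were named after their values were seen. *Pals1*, *Ccn1* and *Ccn2* were matched by the older symbols *Mpp5*, *Cyr61* and *Ctgf*. *Lats2* is not analysed here. Promoter sequences of 5 of the 7 members came from RefSeq (GRCm38.p6), and were cut at the start site.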

Additional observations from a re-analysis of the deposited data

How the results depend on the processing

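Of 182 alternative values of the members' fold changes, 176 were within 1 SD of the main value (the SD of log2 CPM between libraries of a genotype, pooled over both), and none that differed by more changed sign. Some within 1 SD did change sign. On gene reads, *Fat1*, *Fat2*, *Fat3* and *Dchs1* were negative in 10, 11, 9 and 11 of 12 alternatives. On exon reads, *Fat1*, *Fat3* and *Dchs1* were negative in 12, 10 and 11 of 14. *Fat4* stayed negative under every alternative run, from -1.24 to -0.86. On log2(RPKM + 0.1) and log2(RPKM + 1), where the median of all genes shifted to 0.12 and 0.08, *Dchs2* had log2 fold changes of -0.55 and -0.13 and *Fat2* of -0.11 and -0.02. The main value of *Fat2* on exon reads was -0.47 (SE 0.40). With uniquely placed exon reads it was -1.05, resting on 34 such reads in Wild-type and 17 in Fam102a KO.

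With the replicate block, the calls over all genes went from 8 to 9 on gene reads and from 11 to 42 on exon reads. The members called went from 0 to 1 (*Fat4*) on both, and the other cadherins at an unadjusted p under 0.05 from 3 to 7. Since the set was made with this contrast known, nothing is read from any count of members called. The block moved the Yap and Tead targets from 2 to 3 and the Frizzled list from 3 to 4, and left the counts of the other 2 lists as they were. Over all genes, those at an unadjusted p under 0.05 on gene reads went from 991 to 1366 of 16391. Without the filter 340 and 326 genes were called on gene and exon reads and by DESeq2 121 and 120, in each case with 1 member. With replicates 2 and 3 only, 0 were called on either. Limma called 7 and 4 genes on the 2 RPKM scales. Leaving out 1 library gave 0 to 13 calls on gene reads and 0 to 15 on exon reads, with 0 members called each time. The related lists then held 2 to 3 (partners), 2 to 4 (Hippo), 1 to 4 (Yap and Tead targets), 0 to 4 (Frizzled) and 2 to 8 (other cadherins) genes at an unadjusted p under 0.05. The counts moved by over 1.5 times without Wild-type library 3 or Fam102a KO library 2 (Hippo, 2), Wild-type library 2 or 3 (Yap and Tead targets 1, Frizzled 0 and 1), Fam102a KO library 3 (Yap and Tead targets 4, other cadherins 7) and Wild-type library 1 (other cadherins, 8). The counts over all genes moved too, from 991 of 16391 with all 6 libraries. They were 1073 of 17199, 710 of 16630 and 627 of 16682 without Wild-type library 1, 2 or 3. Without Fam102a KO library 2 or 3 they were 839 of 16628 and 1539 of 17138. With uniquely placed exon reads the log2 differences in level were 0.92 for *Fjx1* over *Dchs1*, 2.16 for *Dchs1* over *Dchs2* and 2.14 for *Fat3* over *Fat2*. Of the exon reads, 57.9% were uniquely placed for *Dchs1* and 59.3% for *Fat2*, against 90.4% for *Dchs2*, 91.1% for *Fat3* and 98.7% for *Fjx1*. The cause of the shifts in counts and in level was not tested. Gene reads a library numbered 13 to 29 for *Fat2*, 42 to 123 for *Fjx1* and 51 to 86 for *Dchs2*, which limits the precision of each.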

Other observations

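The genes whose levels over the 6 libraries followed each member most closely were listed, as a description over libraries that share the difference between genotypes. For *Fat4* they were *Asph*, an aspartate hydroxylase gene, *Itfg1* and *Pik3r1*, a regulatory subunit gene of PI3 kinase, each with Pearson r = 0.98 (n = 6 libraries, log2 CPM of gene reads). In all, 34 of 10885 genes had r above 0.95 with *Fat4*. For *Dchs2* they were *Ssx2ip*, the glutamate receptor gene *Gria1* and *Nhlrc2*, with r of 0.98, 0.98 and 0.97, and 10 genes had r above 0.95. Log2 fold changes of these 6 genes between the genotypes were -0.38 to -0.18, nearer to 0 than those of *Fat4* and *Dchs2*.

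For *Fat1* the closest were *Kntc1*, 4930586N03Rik and *Tro* (r = 0.99 each), for *Fat3* *Gatad2a*, *Nr4a1* and *Npffr2* (1.00, 0.99 and 0.99), and for *Dchs1* *Rbbp6*, *Helz2* and *Ric1* (0.99, 0.98 and 0.98). *Fat2*, with at most 29 gene reads a library, was followed by *Sod1*, *Urb2* and *Aplf* (0.99, 0.99 and 0.97). *Fjx1* was followed by *U2af1*, a splicing factor gene, *Cdc45*, which acts in DNA replication, and *Ran*, the GTPase of nuclear transport (0.99, 0.98 and 0.98). Among the members themselves, the highest r was 0.74, between *Fat1* and *Fat3*, followed by 0.73 between *Fat4* and *Dchs2*, and the lowest was -0.70, between *Fat4* and *Fjx1*. With 6 libraries of different depth and genotype, these values describe the libraries only.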
